A study of Mus musculus with 2 samples.

Results

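Genes of the TGF-beta, BMP and activin pathway were followed in whole-layer back skin by RNA-sequencing (RNA-seq). They were chosen by symbol: the BMPs and their receptors, the GDFs, the inhibin and activin subunits, the TGF-beta ligands and receptors, the latent TGF-beta binding proteins, the Smads, the activin receptors, and Nog, Chrd, Grem1, Fst, Fstl3 and Mstn. Of 24421 gene symbols in the count table, 60 matched, and the 52 of these with over 3 counts in either library are the genes described here. The skin came from wild-type C57BL6/J mice, which the methods describe as 8-week-old females in telogen, the resting phase of the hair cycle. One library was made from skin stretched at 33% strain for 5 days with a device glued to the back, and 1 library from non-stretched skin at day 5. The methods describe such a strain as the initial value, raised each day. The number of mice behind each library is not given in the sources used here. With 1 library per condition there is no replicate check and no p-value, and every difference compares these libraries and not the conditions.

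The ligands of this family bind a pair of type I and type II receptor kinases, which phosphorylate receptor-activated Smads. TGF-beta and activin ligands signal mainly through Smad2 and Smad3, and BMPs through Smad1, Smad5 and Smad9, each with the common Smad4. Smad6 and Smad7 inhibit the pathway and are themselves targets of it. In skin, BMP signals hold hair follicle stem cells at rest in telogen and also act in the differentiating hair shaft, and TGF-beta drives matrix production by fibroblasts.

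Library totals were 14152379 counts (control) and 11648655 counts (stretched), so 3 counts correspond to 0.212 and 0.258 CPM (counts scaled to a library total of 1000000). Each gene is given as the log2 ratio of its stretched CPM to its control CPM, with an exact 95% interval (Clopper-Pearson) that covers counting error only. A count under 3 was set to 3 for the calls and medians. The pathway genes together took 0.262% of all counts without stretch and 0.265% with it. Levels of different genes are compared as FPKM, which divides CPM by the exon length in kilobases. Another scaling of the libraries would raise every log2 ratio by the same 0.064 to 0.12, so ratios this close to 0 have no firm sign. Genes of the hair shaft and inner root sheath, which growing follicles express, were present in both libraries (15173 and 2494 CPM over 17 genes), although the methods describe telogen.

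Over the whole list the pathway genes differed between the libraries in both directions. At a 2-fold difference 5 of the 52 genes (9.62%) were higher in stretched skin, against 6.32% of the 16255 genes above the same minimum, and 5 (9.62%) were lower, against 5.47%. Of the 5 higher, Gdf3 and Gdf15 rest on 5 counts in stretched skin, and 3 were higher with at least 20 counts over both libraries and 2 with 1 CPM added or with the whole interval past 2-fold. Of the 5 lower, Bmp4 falls short of 2-fold under the 4 other scalings, and 3 were lower with 1 CPM added or with the whole interval past 2-fold. The shares of all genes were not computed under these other settings. The interval lay wholly above 0 for 14 (26.9%, against 18.1% of all genes) and wholly below 0 for 21 (40.4%, against 33.5%). Their median log2 ratio was -0.098, beside -0.12 for all genes. In bulk tissue, fewer cells of a type and less RNA per cell cannot be told apart, here and for every gene that follows. The study's methods call a fold of 2 on FPKM above a minimum expression value. Applied here to FPKM + 1, this called 1 of 36 pathway genes up (Ltbp2, background 2.61%) and 2 down (Mstn and Smad6, background 2.43%). On FPKM without the added 1, Bmp4 was called down as well, which makes 3. The log2 ratio was below 0 for 30 of the 52 genes (57.7%), against 61.5% of all genes. What follows is ordered by role.

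**Figure D1:**
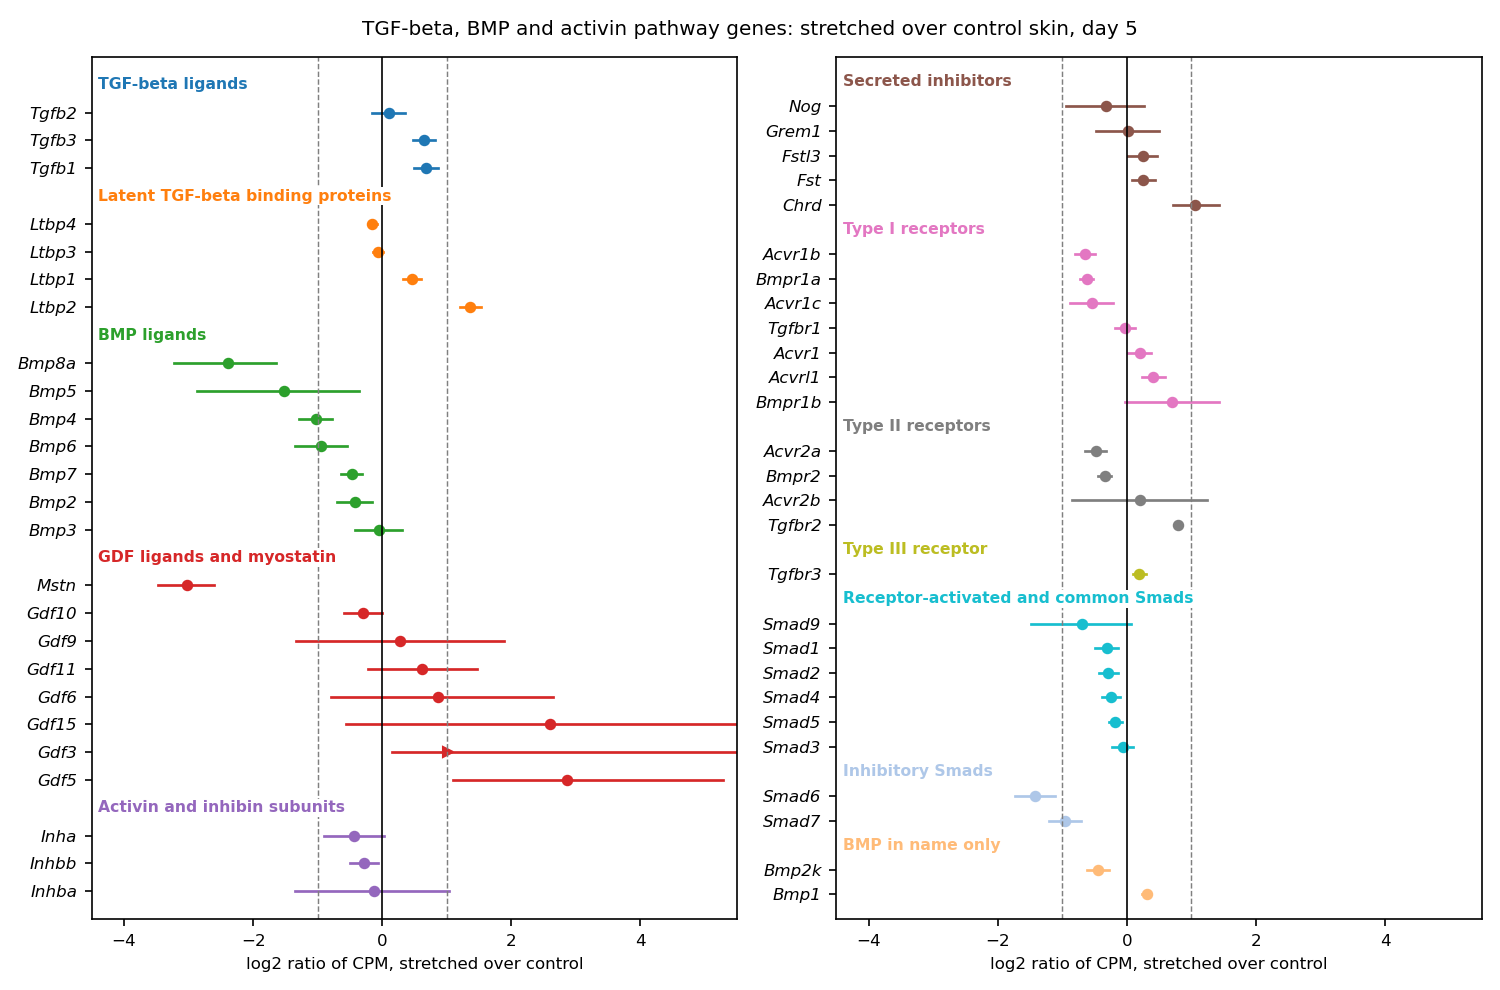
Log2 ratio of CPM in stretched skin over control skin (horizontal axis) for the 52 pathway genes, grouped by role, with 1 library per condition. Points are ratios, bars are 95% counting intervals (cut at the right edge for Gdf15 and Gdf3), and dashed lines mark a 2-fold difference. The triangle is the ratio of Gdf3 with its 0 counts in control skin set to 3. All 7 BMP ligands lie left of 0 (Bmp3 moves right of it under other scalings) and all 3 TGF-beta ligands lie right of it.

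Because Ltbp2, Mstn and Smad6 were called both by CPM ratio and on FPKM + 1, the DNA around their start sites is shown. Each window holds 250 bases before the annotated start and 20 bases from it on, read 5′ to 3′ on the gene's strand, from RefSeq on GRCm38.p6. Capitals mark the short Smad box CAGAC on either strand (GTCTG when read in reverse) and the palindromic Smad binding element GTCTAGAC.
Mstn (chr1:53061390-53061659, plus strand): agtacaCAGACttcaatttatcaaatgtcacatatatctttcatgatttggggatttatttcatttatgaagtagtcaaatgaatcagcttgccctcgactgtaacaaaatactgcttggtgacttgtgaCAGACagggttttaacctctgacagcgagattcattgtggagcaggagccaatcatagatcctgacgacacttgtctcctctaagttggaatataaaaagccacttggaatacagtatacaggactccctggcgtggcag
Smad6 (chr9:64022040-64022309, minus strand): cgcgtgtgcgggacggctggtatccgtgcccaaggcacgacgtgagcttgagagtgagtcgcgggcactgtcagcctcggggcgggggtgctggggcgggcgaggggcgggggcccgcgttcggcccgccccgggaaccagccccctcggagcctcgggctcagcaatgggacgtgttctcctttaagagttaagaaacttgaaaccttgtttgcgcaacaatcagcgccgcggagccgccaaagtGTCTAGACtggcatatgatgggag
Ltbp2 (chr12:84876472-84876741, minus strand): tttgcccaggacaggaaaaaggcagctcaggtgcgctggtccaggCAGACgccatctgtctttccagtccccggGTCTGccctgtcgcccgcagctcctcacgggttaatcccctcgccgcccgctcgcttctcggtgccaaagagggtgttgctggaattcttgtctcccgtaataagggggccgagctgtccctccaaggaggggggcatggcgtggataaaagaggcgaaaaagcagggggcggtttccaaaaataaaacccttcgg
The Smad6 window held 1 GTCTAGAC, whose first base is at position -4 from the start, and no CAGAC. The full element is rare, with a match in 0.183% of the 32851 windows of the same length in the table. Mstn and Ltbp2 each held 2 copies of CAGAC, at -244 and -120 and at -205 and -176, but 45.4% of all windows hold this short motif. The Mstn window also held a TATAAA at -29 (12.9% of all windows) and 4 E-boxes (CANNTG, 68.9% of all windows), the sequence bound by myogenic transcription factors. Ltbp2 held 2 E-boxes and Smad6 held 1, none of the 3 held the BMP-type element GGCGCC (10.4% of all windows), and no match overlapped another. A match describes the letters and does not show that a factor binds there. Of the 52 genes, 36 have a window in the table.

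Of the 3 TGF-beta ligands, Tgfb1 and Tgfb3 were higher in stretched skin. Tgfb1, the isoform best known from immune cells and wounds, had 424 counts in the control and 559 in the stretched library, a log2 ratio of 0.68 (interval 0.49 to 0.87). Tgfb3 had 495 and 638 counts (0.65, interval 0.48 to 0.82), and 12.4% of its exonic bases overlap genes on the opposite strand. Tgfb2, with 260 and 229 counts, did not differ beyond counting error (0.098, interval -0.16 to 0.36). Tgfb3 was the most abundant of the 3 in both libraries, at 10.3 and 16.2 FPKM, ahead of Tgfb1 at 5.94 and 9.52 FPKM and Tgfb2 at 3.17 and 3.39 FPKM. Summed over the 3 genes, TGF-beta ligand transcripts went from 83.3 CPM to 122 CPM.

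Latent TGF-beta binding proteins tether the inactive ligand to the matrix. Ltbp2, the member that does not bind latent TGF-beta and instead associates with fibrillin microfibrils, had 438 counts in the control and 927 in the stretched library, a log2 ratio of 1.36 (interval 1.20 to 1.53), or 2.57-fold higher. It lies on chromosome 12 of mm10 from 84783212 to 84876532. Ltbp1 was also higher, with 835 and 946 counts (0.46, interval 0.33 to 0.60). The abundant Ltbp4 had 4004 and 2957 counts (-0.16, interval -0.23 to -0.088), a difference that 3 of 4 other scalings bring within counting error, and the interval of Ltbp3 (-0.062, with 2779 and 2191 counts) included 0. Ltbp2 therefore moved from the lowest of the 4 levels in control skin (3.78 FPKM, below Ltbp1 at 5.52) to the third in stretched skin (9.72 FPKM, above Ltbp1 at 7.60). Ltbp4 stayed first at 43.8 and 39.3 FPKM. Of the exonic bases of Ltbp2, 9.34% overlap a transcript on the opposite strand, D030025P21Rik.

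All 7 measured BMP ligands had a log2 ratio below 0 (Bmp3 not under other scalings), with a median log2 ratio of -0.94, and the interval lay wholly below 0 for 6 of them. Of all genes, 61.5% had a ratio below 0 and 33.5% an interval below 0. Bmp4, which dermal and follicle mesenchyme express, had 454 counts in the control and 183 in the stretched library, a log2 ratio of -1.03 (interval -1.29 to -0.78), or 2.04-fold lower, and less than 2-fold lower under the 4 other scalings. It lies on chromosome 14 of mm10 from 46383520 to 46390669. Bmp8a had 108 and 17 counts (-2.39, interval -3.22 to -1.64), the largest difference among the BMPs, and has 6.54% of its 76-base stretches in common with other genes. Its close paralog Bmp8b had 3 counts and 1 count and was not measurable.

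Bmp6 had 182 counts in the control and 78 in the stretched library (-0.94, interval -1.34 to -0.55). Bmp2, an inhibitor of hair cycle entry, had 304 and 186 counts (-0.43, interval -0.70 to -0.16), or 1.35-fold lower. Bmp7 had 868 and 515 counts (-0.47, interval -0.63 to -0.31). These 3 ligands lay on the same side of 0 as Bmp4 with smaller differences. Bmp5 had 28 and 8 counts (-1.53, interval -2.87 to -0.36), and 46.7% of its exonic bases overlap a gene on the opposite strand, Gm26903, so its value is uncertain. For Bmp3, an unusual BMP that opposes the others, 146 and 116 counts gave -0.051 (interval -0.42 to 0.31). By level Bmp7 (15.3 FPKM) and Bmp4 (14.3 FPKM) led in control skin, and in stretched skin Bmp7 (11.0 FPKM) stood above Bmp4 (6.99 FPKM). The summed level of BMP ligands was 148 CPM in control skin and 94.9 CPM in stretched skin.

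Mstn had the lowest ratio of all 52 genes. It encodes myostatin, a ligand made mainly by skeletal muscle that limits muscle growth, and lies on chromosome 1 of mm10 from 53061640 to 53068079. The control library held 514 counts and the stretched library 52, a log2 ratio of -3.02 (interval -3.46 to -2.61), or 8.14-fold lower. Its level went from 13.4 FPKM to 1.65 FPKM, while that of Gdf11, its closest paralog, was 0.400 FPKM (23 counts) and 0.613 FPKM (29 counts), a difference within counting error (0.62, interval -0.22 to 1.47). Mouse back skin carries a thin striated muscle layer, the panniculus carnosus. Of 15 genes of adult skeletal muscle, 12 had intervals below 0 and 3 above 0, with a median of -0.40, and their summed level was 33964 CPM in the control and 25769 CPM in the stretched library. Only Myh4, the myosin heavy chain of the fastest fibres, had a lower ratio than Mstn, with 91029 and 3156 counts (-4.57), and the other 14 were higher than Mstn. Of 8 genes of developing muscle 7 had intervals above 0, from Myod1 (1.24) to Myh3 (6.58), and their summed level was 82.0 and 1187 CPM. Their part in the Mstn difference was not tested.

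The other GDF ligands were scarce, with the exception of Gdf10. Gdf10, known in skin from fibroblasts, had 241 and 162 counts (-0.29), and its interval included 0. Gdf5, a ligand of joint and tendon development, had 3 counts in the control and 18 in the stretched library, a ratio of 7.29 (log2 2.87, interval 1.09 to 5.27), but 40.3% of its exonic bases overlap Gm15557 on the opposite strand. Gdf3 had 0 and 5 counts, a ratio of 2.02 with the control set to the floor (3 counts), and its log2 interval starts at 0.15. For Gdf15, a stress-induced ligand, 1 and 5 counts gave a log2 ratio of 2.60 with an interval of -0.56 to 8.17. Gdf3 and Gdf15 are the genes just inside the minimum of the list, and just outside it lie Bmp8b and Bmp15 (1 count and 2 counts). The intervals of Gdf6 (6 and 9 counts) and Gdf9 (8 and 8 counts) also included 0. Bmp10, Gdf1, Gdf2, Gdf7, Inhbc and Inhbe were listed at 0 in both libraries, and every exonic base of Gdf1 lies in the exons of Cers1 or another gene.

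**Figure D2:**
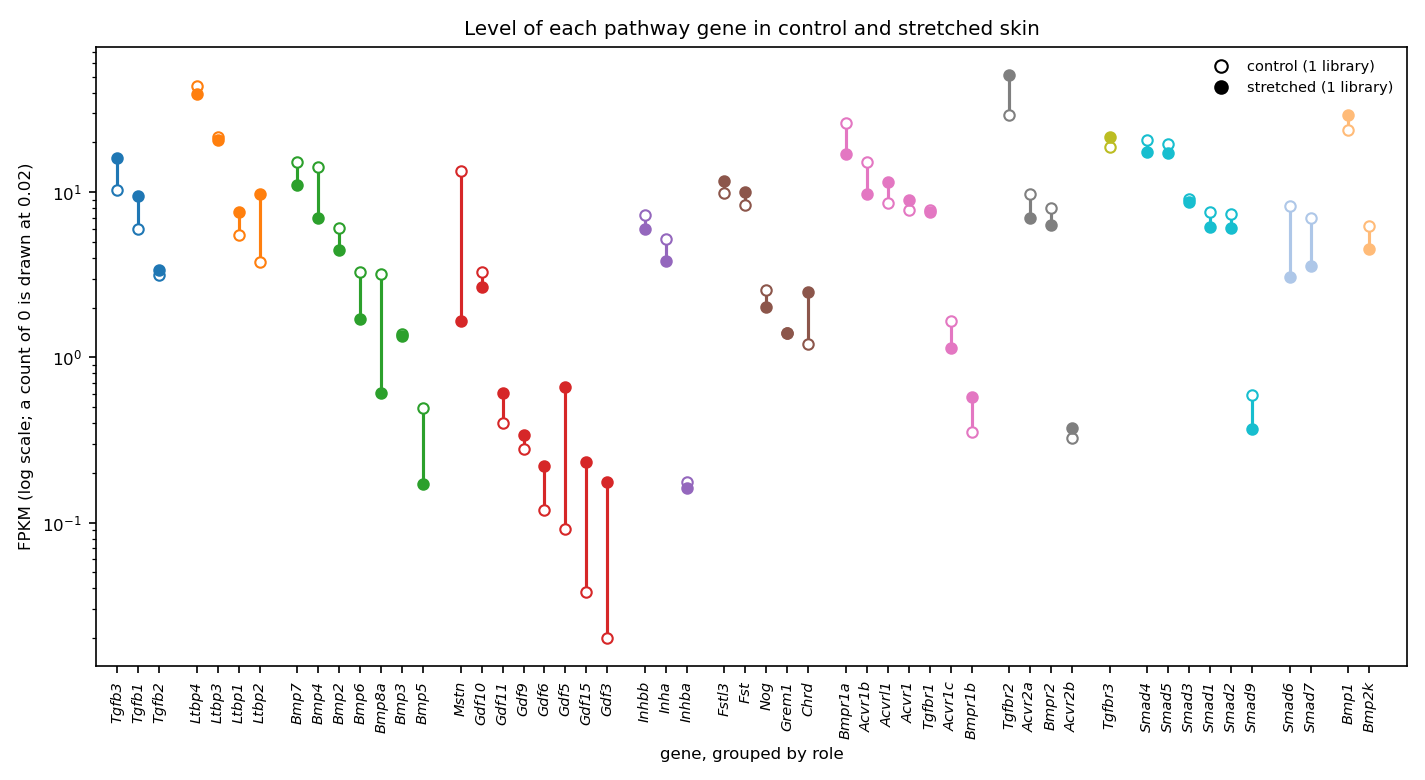
FPKM (vertical axis, log scale) of the 52 pathway genes in control skin (open circles) and stretched skin (filled circles), 1 library each, grouped by role and ordered by the control level; a count of 0 is drawn at 0.02. Mstn drops from 13.4 to 1.65 FPKM, and Tgfbr2 has the highest level of all in stretched skin at 51.0 FPKM.

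Of the activin and inhibin subunits, only Inhbb had an interval that excluded 0. Inhbb, which forms activin B, was the most abundant at 7.22 and 5.97 FPKM, with 435 and 296 counts (-0.27, interval -0.49 to -0.058, which included 0 under the other scalings). Inha, the inhibin alpha subunit, had 108 and 66 counts (-0.43, interval -0.89 to 0.025). Inhba, which forms activin A, was scarce, with 16 and 12 counts (-0.13, interval -1.35 to 1.04), and a difference of the size seen for Inhbb was not detectable at this depth.

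Of the secreted inhibitors only Chrd passed 2-fold. Chrd encodes chordin, which binds BMPs outside the cell, and had 106 counts in the control and 182 in the stretched library, a log2 ratio of 1.06 (interval 0.71 to 1.42). Fst, the activin and myostatin antagonist follistatin, had 546 and 537 counts, slightly higher after scaling (0.26, interval 0.082 to 0.43), and its relative Fstl3 had 342 and 333 (0.24, interval 0.020 to 0.46). Fstl3 was the most abundant inhibitor at 9.88 and 11.7 FPKM, but 47.3% of its exonic bases overlap Prss57 on the opposite strand. Nog, the BMP antagonist noggin, had 61 and 40 counts (-0.33, interval -0.94 to 0.27) and Grem1, or gremlin 1, had 82 and 68 (0.011, interval -0.47 to 0.49). At these counts a difference of the size seen for Fst was not detectable.

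Among the receptors of TGF-beta itself the largest difference was in Tgfbr2. Tgfbr2, the type II receptor of TGF-beta on chromosome 9 of mm10 from 116084293 to 116175360, had 3402 counts in the control and 4863 in the stretched library, a log2 ratio of 0.80 (interval 0.73 to 0.86). At 29.4 and 51.0 FPKM it was the most abundant of all receptors in both libraries. Its type I partner Tgfbr1 had 716 and 577 counts and an interval that included 0 (-0.031, interval -0.19 to 0.13), and the co-receptor Tgfbr3 (betaglycan) was slightly higher, with 1732 and 1632 counts (0.20, interval 0.097 to 0.29).

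Of 9 BMP and activin receptors, 5 had intervals below 0 and 2 above, against 33.5% and 18.1% of all genes. Bmpr1a, the main type I BMP receptor of the hair follicle, had 2342 and 1252 counts (-0.62, interval -0.72 to -0.52), which took it from 26.1 to 16.9 FPKM. The type II BMP receptor Bmpr2 had 2051 and 1329 counts (-0.35, interval -0.45 to -0.24). Acvr1b, the activin type I receptor ALK4, had 956 and 501 counts (-0.65, interval -0.81 to -0.49), and Acvr2a had 783 and 461 (-0.48, interval -0.65 to -0.32). Acvr1c, the receptor ALK7 of adipocytes, had 218 and 123 counts (-0.54, interval -0.88 to -0.22). All 10 adipocyte genes were also lower, from -1.14 to -0.56 with a median of -0.70, and each had a lower ratio than Acvr1c. Their summed level was 3146 CPM and 2027 CPM, and their part in the difference was not tested.

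The 2 with intervals above 0 were Acvrl1 and Acvr1. Acvrl1 encodes ALK1, a BMP receptor of endothelium, and had 521 and 570 counts (0.41, interval 0.24 to 0.58). Acvr1 had 534 and 504 counts (0.20, interval 0.019 to 0.38). Of 9 genes of blood vessel endothelium 6 had intervals above 0 and 1, Kdr, below 0. Their median was 0.40, and their summed level was 351 and 467 CPM. Their part in the Acvrl1 difference was not tested. The scarce Bmpr1b (30 and 40 counts) and Acvr2b (18 and 17 counts) had intervals that included 0.

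The inhibitory Smads had the lowest ratios among the Smads. Smad6, which blocks mainly BMP signals and whose start site holds the Smad element shown above, had 374 counts in the control and 115 in the stretched library. Its log2 ratio was -1.42 (interval -1.73 to -1.12), or 2.68-fold lower, and it lies on chromosome 9 of mm10 from 63953076 to 64022059. Smad7, which blocks both arms, had 444 and 188 counts (-0.96, interval -1.21 to -0.71). Both were lower than all 9 endothelial genes, the lowest of which was Kdr at -0.37. Both lay above all 17 hair shaft and inner root sheath genes, the highest of which was at -1.65. Smad7 lay within the range of the 10 adipocyte genes (-1.14 to -0.56) and Smad6 below it. The part of cell types in these differences was not tested.

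The signal-carrying Smads were lower by less. All 6 had a ratio below 0 (Smad3 not under other scalings), against 61.5% of all genes, with a median of -0.27, and 4 of them (Smad1, Smad2, Smad4 and Smad5) lay between -0.31 and -0.18. These values are near the median of all genes, -0.12, and under some other scalings the intervals of Smad4 and Smad5 included 0. The most abundant in control skin was Smad4 at 20.6 FPKM, with 1084 and 752 counts (-0.25, interval -0.38 to -0.11). Smad3, with 715 and 564 counts, had an interval that included 0 (-0.061, interval -0.22 to 0.10). Smad9, the scarcest at 0.592 and 0.368 FPKM, had 45 and 23 counts (-0.69, interval -1.48 to 0.068), which overlaps the interval of Smad7.

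A pair of genes carry the BMP name without being ligands or receptors. Bmp1, a metalloproteinase that processes procollagen and cleaves chordin, had 2963 and 3018 counts (0.31, interval 0.23 to 0.38). Bmp2k, a kinase first found in cells treated with BMP2, had 748 and 450 counts (-0.45, interval -0.62 to -0.28) and has 22.9% of its 76-base stretches in common with other genes.

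Genes known to respond to each arm were counted in the same way. Both lists were chosen with earlier results of these data known, so the shares of all genes beside them are no independent test. Of 11 BMP response genes 7 had intervals below 0 and none above, with a median of -0.69, and 4 were 2-fold lower, against 33.5%, 18.1% and 5.47% of all genes in the same order. Msx2, a homeobox gene of the hair matrix, had 1219 counts in the control and 235 in the stretched library (-2.09, interval -2.30 to -1.89). Msx1 had 691 and 204 counts (-1.48), Id4 876 and 325 (-1.15) and Sp7, an osteoblast factor, 49 and 16 (-1.33). Among the Id genes, the classic BMP targets, Id1 (-0.69), Id2 (-0.37) and Id3 (-0.77) were also lower, so all 4 Id genes were.

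Of 13 TGF-beta response genes measured, 10 had intervals above 0 and 2 below, against 18.1% and 33.5% of all genes, with a median of 0.50. Timp1, an inhibitor of metalloproteinases, had 102 and 642 counts (2.93, interval 2.63 to 3.25). Postn, which encodes the matrix protein periostin, had 8261 and 15913 counts (1.23, interval 1.19 to 1.27). Snai2 (-0.64) and Tagln (-0.27) were lower, and 67.9% of the exonic bases of Tagln overlap another gene. Other signals also act on many genes of both lists.

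**Figure D3:**
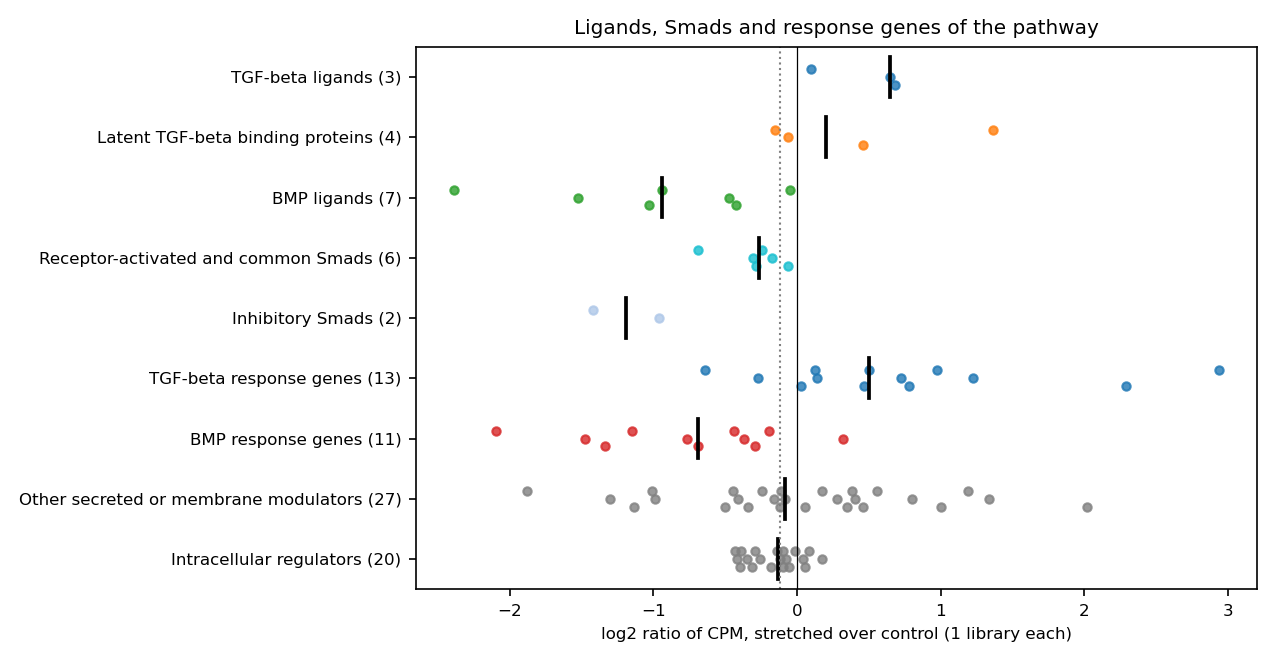
Log2 ratio of CPM in stretched over control skin (horizontal axis, 1 library each) for selected roles of the pathway and for lists of other pathway genes, with the number of genes in brackets. Each point is a gene, black bars are medians and the dotted line is the median of all genes (-0.12); BMP ligands and BMP response genes lie mostly left of 0, and TGF-beta ligands and TGF-beta response genes mostly right of it.

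Other modulators of the pathway went both ways. Of 27 measured secreted or membrane modulators 11 had intervals above 0 and 11 below, against 18.1% and 33.5% of all genes, with a median of -0.087. Bambi, a decoy receptor that is itself a target of BMP and WNT signals, had 828 and 185 counts (-1.88, interval -2.12 to -1.65), and Sostdc1, a follicle antagonist of BMP and WNT, had 792 and 324 (-1.01). Lrrc32, which encodes the TGF-beta anchor GARP, had 315 and 655 counts (1.34, interval 1.14 to 1.54). Nrros, which encodes a TGF-beta anchor of myeloid cells, had 378 and 623 (6.39 and 12.8 FPKM), and Thbs1, or thrombospondin 1, had 2407 and 4513 (1.19).

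The 20 intracellular regulators, such as the Smurf ligases and Ski, ranged from -0.43 to 0.17, with 11 intervals below 0 (33.5% of all genes), none above (18.1%) and no gene past 2-fold. Their median was -0.13, beside -0.12 for all genes. Of 6 further ligands and receptors 3 were measured, and the intervals of all 3 included 0.

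Genes of other cell types in the skin also differed between the libraries. All 17 hair shaft and inner root sheath genes were lower in stretched skin, with a median of -2.72 and a range from -4.41 to -1.65. None of them was at 0 in either library. Bmp8a (-2.39) lay within the range of these genes, and Bmp4 (-1.03) and Bmp5 (-1.53) lay above all 17. The part of hair growth in the lower BMP ligands, Msx genes and Bambi was not tested.

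The 9 dermal fibroblast genes were all higher, from 0.18 to 1.10 with a median of 0.80, and their summed level was 41504 CPM without stretch and 78587 CPM with it. Ltbp2 (1.36) lay above all 9, and Tgfbr2 (0.80) and Tgfb3 (0.65) lay among them. Of 12 macrophage genes 11 were higher, with a median of 1.28 and summed levels of 966 and 2280 CPM, and Tgfb1 (0.68) lay below 11 of the 12. Keratinocyte genes, of epidermis and follicle together, were abundant in both libraries (16968 and 17278 CPM over 11 genes, median -0.13), with 4 intervals above 0 and 6 below. Of 7 cartilage and bone genes 5 were measured, 2 with intervals below 0, and Bglap and Ibsp, which mark osteoblasts, were at 0 in both libraries, but 49.7% of the 76-base stretches of Bglap also occur in other genes. How far these differences in cell type genes account for the pathway genes was not tested.

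**Figure D4:**
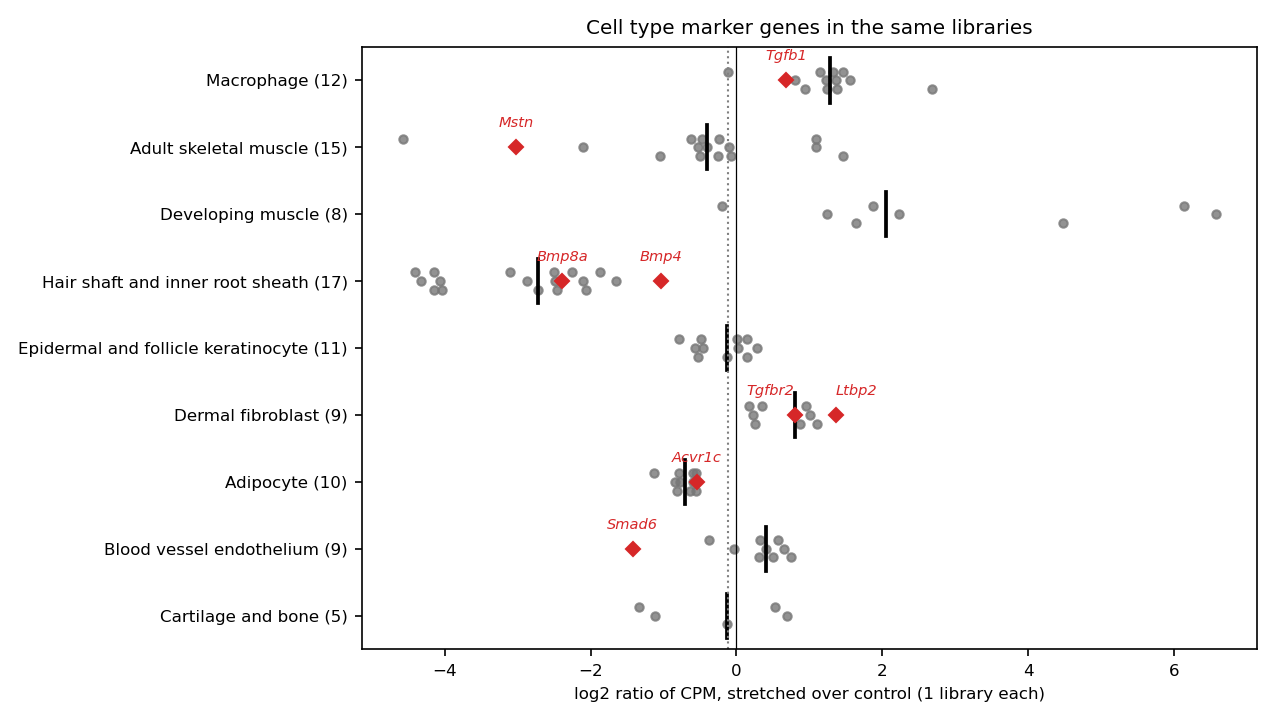
Log2 ratio of CPM in stretched over control skin (horizontal axis, 1 library each) for marker genes of cell types (grey points, number of genes in brackets), with black bars at the medians and the dotted line at the median of all genes. Red diamonds place pathway genes beside a list. Mstn lies at the low end of the muscle genes, with only Myh4 (-4.57) lower. Smad6 lies below all endothelial genes and above all hair shaft and inner root sheath genes.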

How the data were processed

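Reads of 76 bases from 2 libraries, made with TruSeq RNA Preparation Kit v2, were filtered by the authors with the FASTX-Toolkit 0.0.13.2 (Phred score of at least 20, reads over 35 bases) and aligned to mm10 with TopHat2 2.1.0. The authors deposited a raw read count for each gene symbol, without normalization. The counting program, its annotation and its use of strand are not given in the sources used here, and FPKM values made with Cufflinks 2.2.1 were not used here.

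From the counts, CPM was computed with the library totals (14152379 and 11648655) and FPKM with the exon union of each gene in GENCODE M21 on mm10, matched by name (23384 genes) or synonym (678 genes), with 359 unmatched. Intervals are exact 95% Clopper-Pearson intervals of the stretched share of a gene's counts, without a pseudocount. They and the floor of 3 counts cover counting error only, since PCR copies are not independent molecules. Genes with 3 or fewer counts in both libraries were left out. A 2-fold difference is a CPM ratio of at least 2 or at most 0.5. The study's rule (a fold of 2 and a product over both libraries above 10) was applied to FPKM + 1, where the study's methods name FPKM. Shared 76-base stretches and exon overlap were computed from GENCODE M21 transcripts on either strand, and reads from a gene and an antisense partner cannot be told apart without strand. The calculation of the intervals and calls was checked on simulated counts that held counting error only. Such counts cannot show variation between mice or libraries.

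The pathway genes, their roles and the other gene lists were chosen with earlier results of these data known. Of the 52 pathway genes, those named with counts are past 2-fold with at least 20 counts, have an interval past 0 and a ratio of at least 1.3 or its inverse, have the highest mean FPKM of a role, or are Bmp2, Bmp4, Tgfb1, Inhba, Fst, Nog or Grem1. Others are named where they complete a role. Of the other pathway lists, genes past 2-fold with at least 20 counts are named, of which 1 is not reported here, and Id1, Id2, Id3, Snai2 and Tagln were added after their values were seen. Promoter windows came from RefSeq (GRCm38.p6), for genes picked by their calls. The libraries were also scaled by upper quartile, by TMM in edgeR 4.0.16, by size factors in DESeq2 1.42.0, or total counts less the top 50 genes, and other minimums and a pseudocount of 1 CPM were tried. Python 3.11.15, numpy 2.4.6, pandas 2.3.3, scipy 1.17.1, matplotlib 3.10.9 and R 4.3.3 were used.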

Additional observations from a re-analysis of the deposited data

How the results depend on the processing

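No library could be left out, and no paired analysis was possible because each condition has 1 library. The other scalings add 1 shift to every log2 ratio, of 0.064 when the top 50 genes are left out of the totals, 0.12 for upper quartile, 0.11 for TMM and 0.11 for median of ratios. None of the 51 single genes recomputed changed sign where its interval excluded 0. The signs of Bmp3, Ltbp3, Smad3 and Tgfbr1, whose intervals include 0, turned positive, and Bmp4 was no longer 2-fold lower in any of the 4 scalings. The interval of Inhbb came to include 0 in all 4, those of Ltbp4 and Smad5 in 3 and that of Smad4 in 2, and that of Bmpr1b came to exclude 0 in all 4. The median of the 52 genes (-0.098) became 0.016 with TMM.

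The 5 genes 2-fold higher became 3 with at least 20 counts over both libraries, 2 with 1 CPM added and 2 with the whole interval past 2-fold. The 5 genes 2-fold lower became 3 with 1 CPM added and 3 with the whole interval past 2-fold. No share of all genes was computed under these settings. With an expression value above 100 the rule on FPKM + 1 called 0 up and 0 down, because fewer genes are tested. It called 3 down in place of 2 with 0.1 added to FPKM in place of 1, with no minimum expression value and, chosen after seeing the data, with nothing added. The median of the latent TGF-beta binding proteins was 0.31 with TMM, 0.31 with median of ratios and 0.32 with upper quartile, and Tgfbr3 was 0.31, 0.31 and 0.31 in the same order. The median of the intracellular regulators was -0.017 with TMM and -0.014 with upper quartile. Omission of genes with at least 10% of their stretches in common with others, chosen after seeing the data, left 4 genes 2-fold higher and 4 lower. Low counts leave wide intervals for genes such as Gdf3, Gdf5, Gdf6, Gdf9 and Gdf15.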

Other observations

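Ratios of one gene to another within a library do not depend on how the libraries are scaled. The pairs below were chosen after their values were seen and carry counting intervals only. Per FPKM of Bmp4, Tgfb1 went from 0.416 to 1.36 with stretch (log2 change 1.71, interval 1.39 to 2.03). Tgfbr2 per Bmpr1a went from 1.13 to 3.01, a 2.67-fold change, and Tgfbr2 per Bmpr2 from 3.64 to 8.04 (log2 change 1.14, interval 1.02 to 1.26). In control skin Tgfbr2 and Bmpr1a were thus at nearly the same level, and in stretched skin Tgfbr2 was the more abundant. Chrd per Nog went from 0.471 to 1.23 (1.39, interval 0.681 to 2.101).

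Follistatin, which binds myostatin, was at 0.626 of the Mstn level in control skin and at 6.09 times that level in stretched skin (3.28, interval 2.83 to 3.75). Smad6 per Smad1 went from 1.09 to 0.504 (-1.11, interval -1.47 to -0.75) and Smad7 per Smad3 from 0.761 to 0.409 (-0.90, interval -1.20 to -0.60).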
